A study of Mus musculus with 8 samples.

Results

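The transcripts described here belong to 47 genes of DNA replication and S phase, chosen by gene name: the factors that license origins, the replicative helicase and its activators, the DNA polymerases, the sliding clamp with its loader, the enzymes that supply nucleotides, factors that copy chromatin, and regulators of entry into S phase. Of these, 45 were measured among the 47493 genes of the table, and all 45 were among the 12166 genes that reached a mean of at least 1 FPKM and were tested. The other two were not analysed here. FPKM is the number of sequenced fragments scaled to the length of the transcript and to the mapped fragments of the library, so that levels can be compared between genes.

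RNA was measured in CD8+ T cells from inguinal lymph nodes and spleen of 4 female C57BL/6 mice, 6 to 8 weeks old. All mice had been given 200000 B16F10 melanoma cells on day 0, 300 mg/kg cyclophosphamide on day 3 and, on day 5, 2000000 Thy1.1 Pmel-1 cells, which carry a transgenic receptor for a melanoma antigen, with 10000 IU of human IL-2 a day for 3 days. The CD4-depleting antibody GK1.5 (200 μg) was given weekly from day 10, and cells were taken on day 25. Endogenous, Thy1.1-negative CD8+ T cells were then passed over a magnetic column with an antibody to IL-18Rα. The 4 enriched libraries hold the retained IL-18Rα hi cells and the 4 flow-through libraries hold the cells that were not retained. Both fractions therefore carry every treatment, there was no untreated group, and cells were not sorted by cell-cycle stage. Each mouse gave both fractions, and libraries with the same number are referred to below as those of mouse 1 to mouse 4.

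Cells about to divide assemble a ring of MCM proteins on each origin with the help of ORC and *Cdc6*, and in S phase *Cdc45* and the GINS complex turn that ring into a moving helicase. Polymerase alpha with its primase lays down the first stretch, polymerases delta and epsilon extend it, and *Pcna*, loaded by replication factor C, holds them on the template. Much of this set is transcribed together at the G1/S boundary, when E2F transcription factors are released from the retinoblastoma proteins. T cells that have met antigen divide fast, and so do blood-forming progenitors in spleen.

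E2F factors bind short words related to TTTCCCGC, TTTGGCGC, TTTCGCGC and TTTGCCGC. In RefSeq windows (GRCm38.p6) from 250 bases before to 50 bases after a gene start, at least 1 of these 4 words, on either strand, was found in 744 of 32851 windows (2.26%). Among the replication genes, 38 of the 45 had a window under their own symbol, and 14 of the 46 windows (30.4%) held a word. By role, a word was found in 6 of 8 licensing genes and in 3 of 6 polymerase genes, and in 0 of 5 nucleotide supply genes. The stretches below show how the words lie near the RefSeq start of licensing genes, of 2 further members and of *E2f2*. The last is the member with the largest change described later. They are printed 5′ to 3′ along the strand of the gene, with the words in capitals.

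Mcm6 (chr1:128359725-128359835, minus strand): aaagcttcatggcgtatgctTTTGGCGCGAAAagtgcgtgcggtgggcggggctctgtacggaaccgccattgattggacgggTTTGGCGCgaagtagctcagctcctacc
Mcm5 (chr8:75109336-75109387, plus strand): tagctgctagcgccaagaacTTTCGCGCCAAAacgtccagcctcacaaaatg
Cdc6 (chr11:98907993-98908040, plus strand): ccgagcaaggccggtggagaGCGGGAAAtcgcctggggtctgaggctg
Orc1 (chr4:108579407-108579453, plus strand): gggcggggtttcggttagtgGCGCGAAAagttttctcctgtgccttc
Gins3 (chr8:95633498-95633545, plus strand): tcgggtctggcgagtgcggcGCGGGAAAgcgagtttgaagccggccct
Pola1 (chrX:93632266-93632313, minus strand): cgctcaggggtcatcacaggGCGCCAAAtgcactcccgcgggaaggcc
E2f2 (chr4:136172302-136172323, plus strand): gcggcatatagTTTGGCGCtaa

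In *Mcm5* and *Mcm6* words on opposite strands overlapped, so that 1 run of capitals holds 2 words. In *E2f2* the word lay at base 40 past the RefSeq start, which is upstream of the start that GENCODE M21 gives for the gene. By the GENCODE M21 starts, 98907801 and 95633453, the stretches of *Cdc6* and *Gins3* lie inside the genes. That of *Orc1* spans the GENCODE M21 start, 108579423. A match is a description of the letters and not of binding. *Tyms*, *Pold2* and *Rrm2*, which take part in the results below, held none of the 4 words in their windows. For these the last 100 bases before the RefSeq start are shown, with the word CCAAT, which NF-Y binds, in capitals on either strand. The window of *Tyms* did not hold that word. That word was found in 12289 of 32851 windows (37.4%) and in 26 of the 46 windows of the replication genes (56.5%).

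Tyms (chr5:30073626-30073725, minus strand): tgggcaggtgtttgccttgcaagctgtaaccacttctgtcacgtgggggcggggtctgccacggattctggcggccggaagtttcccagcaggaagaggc
Pold2 (chr11:5878257-5878356, minus strand): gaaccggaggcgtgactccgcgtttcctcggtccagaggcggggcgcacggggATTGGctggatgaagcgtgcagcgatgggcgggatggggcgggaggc
Rrm2 (chr12:24708154-24708253, plus strand): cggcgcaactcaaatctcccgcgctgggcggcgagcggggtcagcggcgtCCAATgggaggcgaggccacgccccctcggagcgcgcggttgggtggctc

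The selected receptor was examined first. *Il18r1*, which encodes IL-18Rα, lay between 22.2 and 37.2 FPKM in the flow-through libraries and between 106.6 and 116 FPKM in the enriched libraries, which goes with the labels. From 11706 to 12288 genes per library reached 1 FPKM. The deposited values carry no read counts, and low values did not give back whole reads, so no depth per library is given. Markers of CD8 T cells (8 genes, among them *Cd3e*, *Cd8a* and *Lck*) had a geometric mean of 134 FPKM in the flow-through library of mouse 1, of 214 to 254 FPKM in those of mice 2 to 4 and of 255 to 271 FPKM in the enriched libraries. That flow-through library therefore stood apart from the others, and the calls and counts of signs are given with and without it.

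All 45 genes were transcribed in every library. Their mean level over the 8 libraries ranged from 7.82 FPKM for *Orc1* to 333 FPKM for *Pcna*, and *Rrm2* (208 FPKM), *Dut* (190.5 FPKM) and *Mcm6* (167 FPKM) followed *Pcna*. *Gins3* (8.30 FPKM), *Ccne2* (14.1 FPKM) and *Pola1* (16.8 FPKM) stood just above *Orc1*. The geometric mean of the 45 genes, taken on FPKM + 1, was 64.6, 40.7, 52.6 and 40 FPKM in the flow-through libraries of mice 1 to 4 and 58.9, 45.8, 53.8 and 42 FPKM in their enriched libraries. Libraries of the same mouse thus lay close together, mice 1 and 3 were high in both fractions, and the fractions overlapped over their whole range.

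In the fit without a mouse block, which does not use the pairing, few of the 45 genes were called different between the fractions. By limma, 2 were higher in the enriched fraction, *E2f2* and *Tyms*, and 1 was lower, *Pold2*, at an adjusted p under 0.05. Among all genes tested 14.1% were called higher and 13.7% lower. The median log2 fold change of the 45 genes was -0.01 and that of all genes -0.02, with 21 of the 45 above 0 and 24 below. Without the flow-through library of mouse 1, 34 were above 0 and 11 below, but that fit keeps the enriched library of mouse 1 without its partner. With both libraries of mouse 1 left out, 7 of the 45 genes had the opposite sign and the median was 0.03. The 13 genes that changed sign without that flow-through library alone were *Mcm2*, *Mcm6*, *Cdc7*, *Prim2*, *Rfc4*, *Rfc5*, *Rpa2*, *Fen1*, *Rrm1*, *Dut*, *Chaf1a*, *Ccne1* and *Ccne2*. All went from below to above 0 and none of them was called. Within mice, their enriched library was the lower one in 2 of 4 mice (as for *Mcm6*) to 4 of 4 (*Prim2*). The small negative values given for them below are to be read with this in view. The 95% intervals of the 42 genes that were not called reached from -1.07 to 1.14 on the log2 scale. For 40 of them the interval stayed between -1 and 1. The distance from estimate to bound had a median of 0.40 over the 45 genes, and differences within such distances may have gone undetected. Numbers pair the libraries, and a fit that blocks by mouse put 7 of the 45 genes higher (*E2f2*, *Tyms*, *Rrm2*, *Pcna*, *Rpa1*, *Cdc45* and *Uhrf1*) and 3 lower (*Pold2*, *Pola2* and *Orc1*), against 22.2% and 22.7% of all genes. The members called made up 4.44% (higher) and, with the block, 15.6% (higher) and 6.67% (lower) of the 45. The fit without the block leaves the spread between mice in its error. The mouse took a median of 84.9% of the variation in the 45 genes and 38.6% in all genes tested. No test of the set was made.

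**Figure D1:**
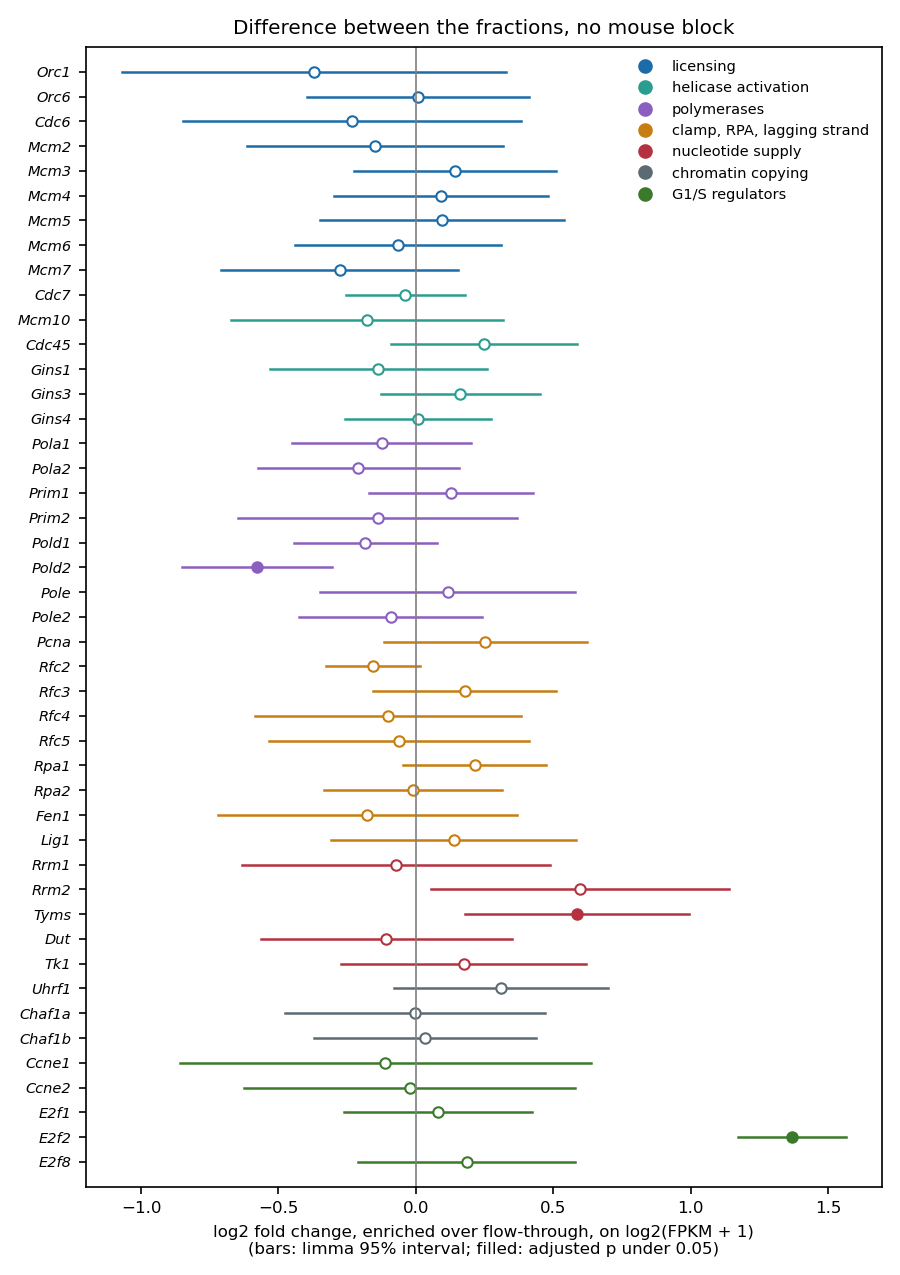
Log2 fold change of the enriched over the flow-through fraction for 45 replication and S-phase genes (x axis, on log2(FPKM + 1)), one gene per row and colored by role. Bars are 95% intervals of the fit without a mouse block, and filled points passed an adjusted p of 0.05: *E2f2* and *Tyms* on the right and *Pold2* on the left.

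All genes of the enriched libraries can also be set against the T-cell markers named above, by dividing each library by their geometric mean. This moved the median over all genes to -0.33 and the share of calls that were higher from 50.8% to 32.9%. The median of the 45 genes moved with it, to -0.35, and *E2f2* alone was called, with 0 lower genes by limma. At an unadjusted p under 0.05, 1 gene was higher and 1 lower under that scaling, and *Pold2* had a larger difference (-0.92) with an adjusted p of 0.06. Of the 45 genes, 3 (*E2f2*, *Tyms* and *Rrm2*) were above 0 under that scaling, and 18 had the opposite sign from that without it. Among the genes tested both with and without the scaling, 2653 were above 0 under it and 9497 below. Every direction below is from the unscaled values and is to be read with this shift. The scaling was not repeated without the flow-through library of mouse 1, which had the lowest geometric mean of these markers (134 FPKM).

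The G1/S regulators held the member with the largest difference. *E2f2* encodes an activating E2F factor, which drives genes needed for S phase and, in T cells, also restrains proliferation. It was at 24.2, 24.7, 24.9 and 21.5 FPKM in the flow-through libraries of mice 1 to 4 and at 70.4, 59, 64.6 and 58.7 FPKM in the enriched libraries. The lowest enriched library was more than 2 times as high as the highest flow-through library. On the log2 scale the difference was 1.37 ± 0.09 (SE; adjusted p = 2e-04 by limma), and it was 1.03 (adjusted p = 0.02) under T-cell scaling. The fractions accounted for 98.1% of the variation of *E2f2* over the 8 libraries and the mice for 1.36%, the reverse of most members.

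*E2f1*, another activating E2F factor, was at 23.5, 14.4, 18.3 and 15.8 FPKM in the flow-through and at 20.9, 17.4, 20.3 and 16.7 FPKM in the enriched libraries. Its log2 fold change was 0.08 with a 95% interval of -0.26 to 0.42, so it overlapped fully between the fractions. Flow-through libraries had an *E2f2* to *E2f1* ratio of 1.37 ± 0.279 and enriched libraries one of 3.36 ± 0.137 (SD, n = 4). *E2f8*, an E2F repressor that is switched on late in S phase, was at 29.3 ± 7.31 and 32.9 ± 4.53 FPKM and was not called. The cyclins E, which activate *Cdk2* at the G1/S boundary, were not called either, with log2 fold changes of -0.11 for *Ccne1* and -0.02 for *Ccne2*. *Ccne1* varied most between mice among these, from 72.9 FPKM in the flow-through library of mouse 1 to 27.5 FPKM in that of mouse 2.

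Of the 5 nucleotide supply genes 1 was called higher without the block (20%), where 14.1% of all genes were. *Tyms* encodes thymidylate synthase, which makes dTMP. Its flow-through libraries were at 98.1, 58, 67.3 and 57.4 FPKM and its enriched libraries at 125, 99.9, 101 and 90.4 FPKM. The enriched library was the higher one in 4 of 4 mice, but the fractions overlapped, because the flow-through library of mouse 1 was above the enriched library of mouse 4. This is a log2 difference of 0.59 ± 0.18 (SE; adjusted p = 0.041 by limma), and 0.24 with an adjusted p of 0.58 under T-cell scaling. The call was lost when any 1 library other than the flow-through library of mouse 1 was left out, with limma adjusted p-values from 0.06 to 0.095, and without that library the adjusted p was 0.0034. With the mouse as a block the adjusted p was 0.0022.

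*Rrm2* encodes the small subunit of ribonucleotide reductase, the subunit that is made anew in S phase and limits the enzyme. It was at 229, 129, 199 and 114 FPKM in the flow-through and at 313, 218, 258 and 203 FPKM in the enriched libraries, higher in 4 of 4 mice. The log2 fold change was 0.60 (95% interval 0.05 to 1.14), with a limma adjusted p of 0.093 without the block and of 0.0032 with it. It was also called without the flow-through library of mouse 1 (log2 fold change 0.76, limma adjusted p = 0.034). *Rrm1*, the large subunit, was at 122 ± 42.9 and 113 ± 23.3 FPKM, with a log2 fold change of -0.07. Relative to each other the subunits shifted without overlap: *Rrm2* to *Rrm1* ratios were 1.28, 1.46, 1.52 and 1.29 in flow-through libraries against 2.23, 2.17, 2.11 and 2.32 in enriched libraries. These ratios were chosen after the values had been seen and carry no test.

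The remaining nucleotide genes overlapped between the fractions. *Dut*, whose product removes dUTP, was at 199 ± 51.2 and 182 ± 34.6 FPKM, and *Tk1*, the thymidine kinase of S phase, at 88.8 ± 24.6 and 99 ± 17.6 FPKM. Their log2 fold changes were -0.11 and 0.17, neither called. Within the role, then, *Tyms* and *Rrm2* differed between the fractions of each mouse in the same direction, whereas *Rrm1* and *Dut* were lower in 3 of 4 enriched libraries.

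Among the polymerase genes 1 of 8 was called lower without the block (12.5%), where 13.7% of all genes were. Of the 12166 genes tested 6332 had a log2 fold change below 0, and of the 8 polymerase genes 6 did. Without the flow-through library of mouse 1 this was 5 of 8, with *Prim2* at 0.05. Within each mouse, however, *Prim2* was lower in the enriched library (4 of 4). *Pold2* encodes the second subunit of polymerase delta, which joins the catalytic subunit to the others. Its flow-through libraries were at 98.4, 71.8, 78.8 and 68.4 FPKM and its enriched libraries at 56.4, 51.9, 54.4 and 47.1 FPKM. Every enriched library was below every flow-through library. The difference came to -0.58 ± 0.12 (SE) on the log2 scale (adjusted p = 0.01 by limma), and the call stood in each fit with 1 library left out. *Pold1*, the catalytic subunit, was at 71.1 ± 10.6 and 62.1 ± 5.18 FPKM (log2 fold change -0.18, 95% interval -0.44 to 0.08). Flow-through libraries had a *Pold2* to *Pold1* ratio of 1.12 ± 0.0775 and enriched libraries one of 0.845 ± 0.0334 (SD, n = 4), also without overlap.

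*Pola2*, the regulatory subunit of polymerase alpha, was at 71, 45.1, 55.4 and 48.1 FPKM in the flow-through and at 56.2, 42.3, 49.6 and 40.2 FPKM in the enriched libraries, lower in 4 of 4 mice. The fractions overlapped, and the difference of -0.21 was called with the block (limma adjusted p = 0.043) but not without it (0.35). *Pola1*, *Prim2*, *Pole2* and *Prim1*, which encode the other polymerase alpha and primase subunits and the second subunit of polymerase epsilon, had log2 fold changes of -0.12, -0.14, -0.09 and 0.13, and *Pole* one of 0.12. None of them was called in either fit.

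No licensing gene was called without the block, and at an unadjusted p under 0.05 the limma count was 0 as well. The 6 subunits of the MCM ring, *Mcm2* through *Mcm7*, kept close to one another: in every library the most abundant was between 1.80 and 2.04 times as high as the least abundant. *Mcm6* was at 222, 146, 177 and 139 FPKM in the flow-through and at 185, 149.9, 178 and 135 FPKM in the enriched libraries. *Mcm7* was at 225, 125, 168 and 138 FPKM in the flow-through and at 150.3, 124, 148 and 109 FPKM in the enriched libraries. For both genes the flow-through library of mouse 1 was the highest of all, and the other libraries overlapped. *Mcm7* was lower in 4 of 4 mice (log2 fold change -0.28, adjusted p with the block 0.058), whereas *Mcm3* was higher in 4 of 4 (0.14, with 0.11).

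*Orc1* and *Cdc6*, the ATPases that load the ring, had the widest spread over the mice within this role. *Orc1*, the largest subunit of the origin recognition complex, was at 14.6, 5.78, 10.6 and 5.56 FPKM in the flow-through and at 8.26, 5.05, 8.07 and 4.67 FPKM in the enriched libraries. It was lower in 4 of 4 mice, with a log2 difference of -0.75 in mouse 1 and of -0.35 to -0.17 in the others. Its limma adjusted p was 0.038 with the block and 0.39 without. *Cdc6* was at 34.8 ± 13.6 and 28.5 ± 6.68 FPKM, also lower in 4 of 4 mice and not called (adjusted p with the block 0.084). *Orc6*, in contrast, was at 34.4 ± 7.96 and 34.3 ± 5.72 FPKM, a log2 fold change of 0.01.

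The genes that activate the helicase stayed close to 0 in most cases. *Cdc45*, which joins the MCM ring at the start of S phase, was at 35.9, 25.9, 30.4 and 24.5 FPKM in the flow-through and at 40.1, 35.8, 35.8 and 27.5 FPKM in the enriched libraries. It was higher in 4 of 4 mice and called with the block (log2 fold change 0.25, limma adjusted p = 0.035) but not without it (0.24). *Gins3* and *Gins4* had log2 fold changes of 0.16 and 0.01 and *Gins1* one of -0.14. *Mcm10*, which helps the helicase start, had -0.18, and *Cdc7*, the kinase that triggers it, -0.04. *Cdc7* ranged from 15.9 to 19.6 FPKM, the smallest ratio of highest to lowest library (1.23) among the 45 genes.

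Of the clamp, its loader and the lagging-strand enzymes, 0 of 9 were called without the block, and 0 at an unadjusted limma p under 0.05. *Pcna* was at 381, 265, 320.4 and 251 FPKM in the flow-through and at 439, 318, 381 and 308 FPKM in the enriched libraries. In each mouse the enriched library was higher, by 0.21 to 0.29 on the log2 scale, although the mice differed by more than that. Its limma adjusted p was 0.013 with the block and 0.27 without. *Rpa1*, the large subunit of the protein that coats single-stranded DNA, was also higher in each mouse, by 0.15 to 0.28 (limma adjusted p = 0.025 with the block and 0.19 without). *Rpa2* had a log2 fold change of -0.01.

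The small clamp loader subunits *Rfc2*, *Rfc3*, *Rfc4* and *Rfc5* had log2 fold changes of -0.15, 0.18, -0.10 and -0.06, and their levels differed by 2.69 to 4.59 times within a library, with *Rfc2* the highest and *Rfc3* the lowest. *Fen1*, the flap endonuclease, and *Lig1*, the ligase that seals Okazaki fragments, had -0.18 and 0.14. Of the factors that copy chromatin, *Uhrf1*, which brings maintenance methylation to new DNA, was at 110.2, 69.6, 94 and 69.1 FPKM in the flow-through and at 123, 95.3, 111 and 90.7 FPKM in the enriched libraries. It was higher in 4 of 4 mice and called with the block (log2 fold change 0.31, limma adjusted p = 0.013) but not without it (0.21). The CAF-1 subunits *Chaf1a* and *Chaf1b* were at 19.3 ± 6.00 and 41.8 ± 11.2 FPKM in the flow-through and at 18.9 ± 3.24 and 42.0 ± 5.53 FPKM in the enriched libraries, and neither was called.

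**Figure D2:**
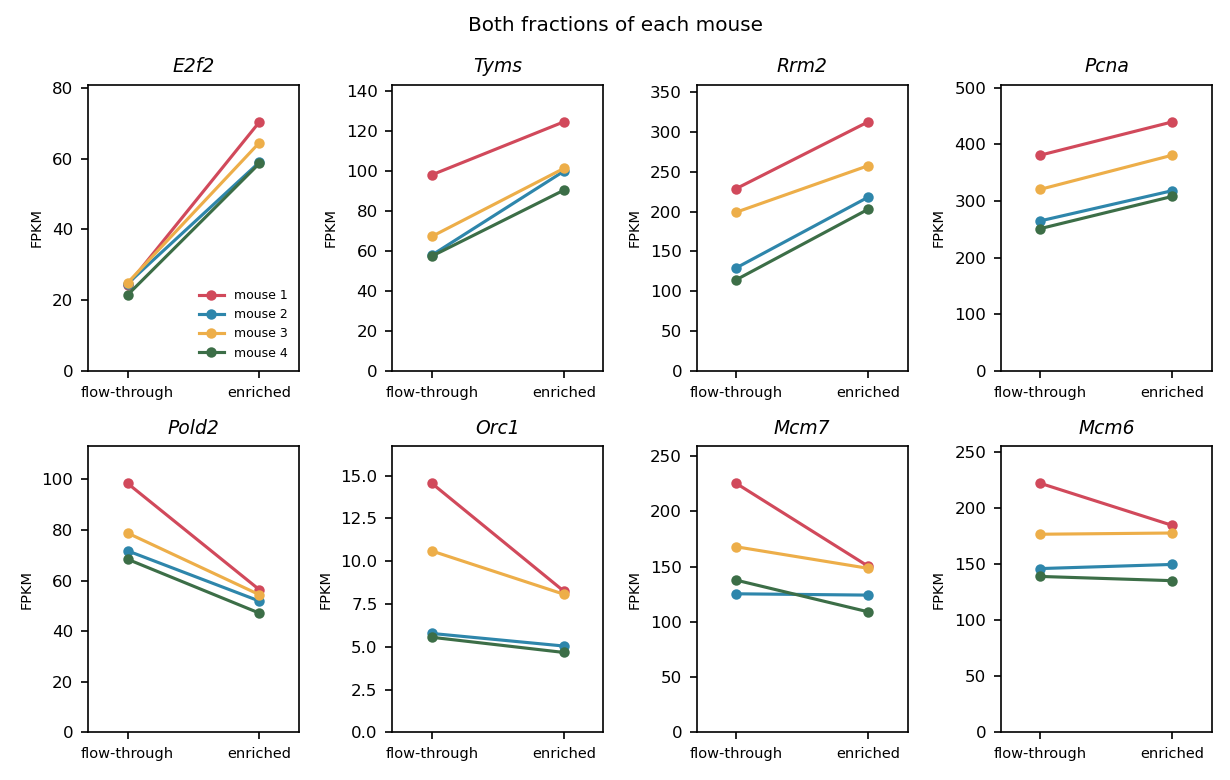
FPKM (y axis, from 0) in the flow-through and enriched library of each mouse, joined by a line, for 8 genes. *E2f2* lay between 21.5 and 24.9 FPKM in the flow-through and between 58.7 and 70.4 FPKM in the enriched libraries, *Pold2* was lower in each enriched library, *Tyms*, *Rrm2* and *Pcna* kept their order of mice, and the flow-through library of mouse 1 was the highest for *Orc1*, *Mcm7* and *Mcm6*.

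Counted by direction alone, 12 of the 45 genes were higher in the enriched library of 4 of 4 mice and 11 were lower in 4 of 4, where 29.2% and 30.6% of all genes were. *E2f2* was the 1 gene whose enriched libraries all lay above the flow-through libraries (16.4% of all genes) and *Pold2* the 1 gene for which they all lay below (15.9%). The mice differed in how the set moved. In mouse 1, 32 of the 45 genes were lower in the enriched library, with a median difference of -0.17 on the log2 scale. In mouse 2, 33 were higher, with a median of 0.15, and in mice 3 and 4 the genes were split at 24 and 23 higher, with medians of 0.01. The medians of all genes lay between -0.02 and -0.01 in each mouse. Without the flow-through library of mouse 1 the median log2 fold change of the 45 genes was 0.13, and without both libraries of that mouse it was 0.03, with *E2f2*, *Tyms* and *Pold2* called in both cases and *Rrm2* in the first.

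The larger part of the variation of these genes lay between the mice. Of the sum of squares of log2(FPKM + 1) over the 8 libraries, the mouse took a median of 84.9% over the 45 genes and the fraction 7.58%, where the medians over all genes tested were 38.6% and 37.3%. The mouse took more than 50% in 41 of the 45 genes (91.1%) and in 37.4% of all genes. In the flow-through, mice 1 and 3 held the 2 highest libraries for 44 of the 45 genes, and in the enriched fraction for 41 (for all genes, 31.5% and 23.7%). Both held in 40 genes. Exceptions with the fraction above 50% were *E2f2*, *Pold2*, *Tyms* and *Rfc2*. The genes share their libraries and depth, so that these counts describe 4 mice and not 45 separate observations.

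**Figure D3:**
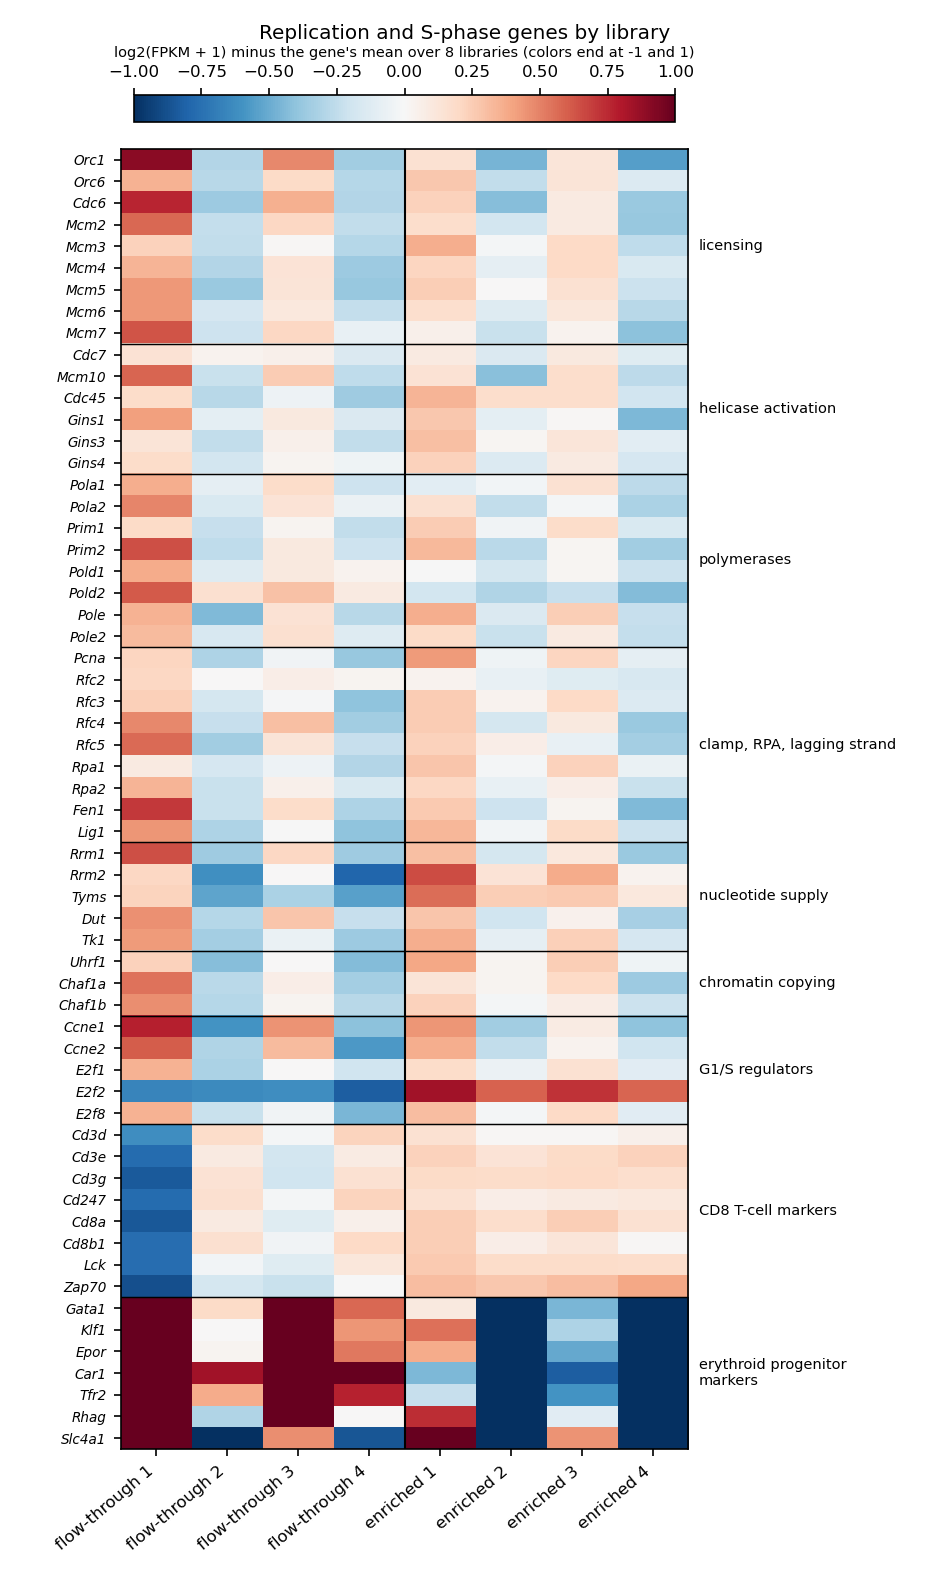
Each row is a gene and each column a library, and color gives log2(FPKM + 1) minus the mean of the gene over the 8 libraries, with the flow-through on the left of the line and the enriched fraction on the right. Most replication genes were above their mean in the libraries of mice 1 and 3 in both fractions, *E2f2* followed the fraction, CD8 T-cell markers were low in flow-through library 1, and most erythroid progenitor markers were highest in flow-through libraries 1 and 3.

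Markers of other cells followed the mice as well. The 7 markers of erythroid progenitors (*Gata1*, *Klf1*, *Epor*, *Car1*, *Tfr2*, *Rhag* and *Slc4a1*) summed to 2047, 762, 1126 and 975 FPKM in the flow-through libraries of mice 1 to 4 and to 487, 123, 319.5 and 129.5 FPKM in the enriched libraries. Mice 1 and 3 were again the highest in each fraction, and the enriched sum was below the flow-through sum in 4 of 4 mice. None of the 7 was at 0 in any library. By limma 4 were called lower in the enriched fraction and 6 with the block, where 13.7% and 22.7% of all genes were. *Gata1*, the defining factor of the lineage, was at 117, 32.7, 64.2 and 43.2 FPKM in the flow-through and at 30.7, 8.13, 20.5 and 7.22 FPKM in the enriched libraries. The part of these cells in the levels of the replication genes was not tested. In bulk RNA, more cells of a dividing type and more RNA per cell cannot be told apart.

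Most of the other marker lists moved in other ways. The 5 granulocyte progenitor markers (*Mpo*, *Elane*, *Prtn3*, *Ctsg* and *Ms4a3*) summed to 587 to 3424 FPKM in the flow-through and 567 to 3342 FPKM in the enriched libraries, with mouse 2 the highest and mouse 1 the lowest in both. Red cell genes, hemoglobins among them, summed to 204 to 1055 and 117 to 1146 FPKM. Their sum was highest in mice 1 and 3 in both fractions, as for the erythroid progenitor markers. Stem and progenitor markers such as *Kit* and *Cd34* summed to 61.9 to 80.7 and 23.3 to 40.2 FPKM. Of those 5 stem and progenitor markers 3 were called lower, and *Hlf* was called higher (log2 fold change 0.62, limma adjusted p = 0.014). Plasma cell markers summed to 294 to 1235 and 538 to 1477 FPKM, myeloid markers to 108 to 376 and 358 to 860 FPKM, and B-cell markers to 25.4 to 66.3 and 41.9 to 86.9 FPKM. NK-cell markers summed to 63.4 to 144 and 119 to 187 FPKM, γδ T-cell markers to 27 to 58.4 and 41.6 to 79.4 FPKM, and *Cd4* with *Foxp3* to 1.43 to 5.68 and 7.66 to 26.9 FPKM. By limma, 3 of 5 NK-cell, 3 of 6 myeloid and 2 of 4 γδ T-cell markers were called higher, as were *Cd4* and *Foxp3*, and 0 of these were lower. For plasma cells 1 of 5 was higher and for B cells 1 of 6 tested. These marker counts stand beside 14.1% of all genes called higher and 13.7% called lower. Most of the NK-cell sum was *Klrd1* (log2 fold change 0.01), while *Ncr1* rose by 2.68. Of 5 melanoma genes 4 (*Tyrp1*, *Dct*, *Tyr* and *Mlana*) had a listed value of 0 in each of the 8 libraries.

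**Figure D4:**
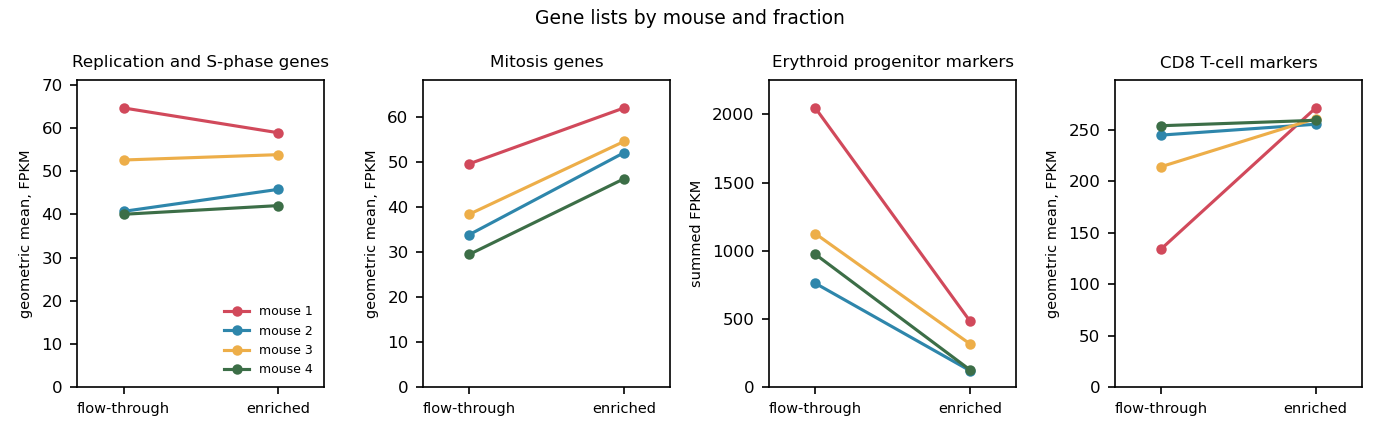
Each panel gives the level of a gene list in the flow-through and the enriched library of each mouse, as a geometric mean or summed FPKM (y axes from 0). The replication genes lay between 40 and 64.6 FPKM with no common direction, the mitosis genes were higher in the enriched library of 4 of 4 mice, the erythroid progenitor markers were lower in 4 of 4, and the CD8 T-cell markers rose most in mouse 1.

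Other genes of the same pathways were described in the same way. Of 40 other replication factors, 2 were called higher and 2 lower, where 14.1% and 13.7% of all genes were. Their median log2 fold change was 0.02. *Asf1b*, a chaperone that hands histones to CAF-1, rose from 63.1, 50.4, 55.3 and 42.2 FPKM in the flow-through to 119, 89.9, 97.5 and 87.1 FPKM in the enriched libraries, without overlap (0.89 ± 0.14 on the log2 scale, SE; adjusted p = 0.0038 by limma). *Ticrr*, which helps load *Cdc45*, rose by 0.39 (adjusted p = 0.045). *Orc5*, an origin recognition subunit, fell by 0.69 (adjusted p = 0.042) and *Rnaseh2a*, the catalytic subunit of an RNase that cuts RNA in hybrids, fell by 0.51 (adjusted p = 0.014), both without overlap. With the block 9 were higher and 9 lower (22.5% each), close to the 22.2% and 22.7% of all genes. Under T-cell scaling limma called 0 of the 40 in either direction, with 0 higher and 7 lower at an unadjusted p under 0.05. For this list the mouse took a median of 58.7% of the sum of squares.

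Of 23 other genes that control G1/S, 6 were called higher and 4 lower, where 14.1% and 13.7% of all genes were. Among those that rose were inhibitors of the transition: *Cdkn2c* (log2 fold change 0.88, limma adjusted p = 0.00098) and *Cdkn2d* (0.68, 0.013), which encode inhibitors of *Cdk4* and *Cdk6*, *E2f7* (0.72, 0.0071), an E2F repressor, and *Rbl2* (0.59, 0.0065), a retinoblastoma relative. *Ccnd3*, the cyclin D3 gene, rose by 0.42 (adjusted p = 0.0073), and it acts in the other direction. Under T-cell scaling 0 of the 23 genes were called higher by limma, and 2 were higher at an unadjusted p under 0.05. The log2 difference under that scaling was 0.54 for *Cdkn2c* (limma adjusted p = 0.12). For *Ccnd3* it fell to 0.07 (0.82). *Cdkn2c* was at 22, 21.5, 20.3 and 19.2 FPKM in the flow-through and at 45.6, 35, 39 and 36.7 FPKM in the enriched libraries.

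The genes that fell were *Myc*, *Tfdp2*, *Cdk4* and *Cdk6*, which promote the transition or pair with E2F factors. *Myc* was at 96.4, 101, 107 and 106 FPKM in the flow-through and at 38, 47, 43.4 and 40.3 FPKM in the enriched libraries, a log2 difference of -1.26 ± 0.08 (SE; adjusted p = 2e-04 by limma). *Tfdp2*, a partner of E2F proteins, had -0.84 (adjusted p = 0.026), *Cdk4* -0.54 (0.041) and *Cdk6* -0.43 (0.013). Of these only *Myc* was also called under T-cell scaling. With the block 11 of the 23 were higher (47.8%) and 7 lower (30.4%), against 22.2% and 22.7% of all genes.

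Genes of mitosis act after S phase. Of 25, 13 were called higher in the enriched fraction and 0 lower by limma, where 14.1% and 13.7% of all genes were. At an unadjusted p under 0.05 the counts were 15 and 0. Their median log2 fold change was 0.55, and 24 of 25 were above 0. The 5 largest were *Nusap1* (0.82), *Cenpf* (0.81), *Cenpe* (0.80), *Mki67* (0.78) and *Kif11* (0.77), which serve the spindle, the kinetochore and the surface of mitotic chromosomes. *Mki67*, the gene of the Ki-67 antigen, was at 57.9, 31.6, 41.3 and 28.8 FPKM in the flow-through and at 72.4, 65.4, 76.2 and 54.5 FPKM in the enriched libraries. The enriched library was higher in 4 of 4 mice, but the flow-through library of mouse 1 was above the enriched library of mouse 4.

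The geometric mean of the mitosis genes stood at 49.6, 33.9, 38.4 and 29.5 FPKM in flow-through libraries, and at 62, 52, 54.5 and 46.3 FPKM in enriched libraries, again with mice 1 and 3 highest in each fraction. The mouse took a median of 37.2% of the sum of squares of these genes and the fraction 59.3%. With the block 22 of 25 were higher, against 22.2% of all genes. Under T-cell scaling their median was 0.21, where that of all genes was -0.33, and 0 were called in either direction, with 0 also at an unadjusted limma p under 0.05. The difference between the mitosis genes and the 45 replication genes was not itself tested. Promoters of the mitosis genes differed in their words: TTTGAA or TTCGAA, forms of the cell-cycle homology element of late genes, stood in 19 of their 24 windows (79.2%), in 11 of 46 windows of the replication genes (23.9%) and in 19.2% of all windows, while an E2F word stood in 1 of the 24.

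**Figure D5:**
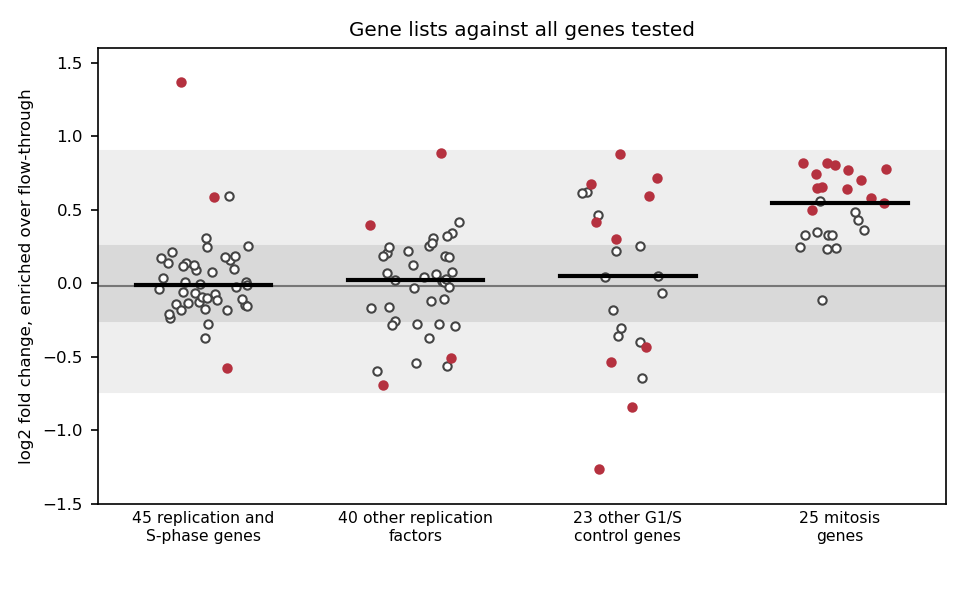
Log2 fold change of the enriched over the flow-through fraction (y axis) for each gene of 4 lists, red where the adjusted p was under 0.05, with a bar at the median of the list. Gray bands hold the middle of all genes tested, from -0.26 to 0.25 (25th to 75th percentile) and from -0.74 to 0.90 (5th to 95th). The medians were -0.01, 0.02 and 0.05 for the first lists and 0.55 for the mitosis genes.

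The annotated positions of the members named first were, in GENCODE M21 on mm10, chromosome 4, 136172394 to 136196057, plus strand, for *E2f2*, chromosome 5, 30058202 to 30073617, minus strand, for *Tyms*, chromosome 11, 5872180 to 5878292, minus strand, for *Pold2*, and chromosome 12, 24708241 to 24714146, plus strand, for *Rrm2*. All are protein-coding. Exons of 14 of the 45 members overlap an exon of a gene on the other strand, among them *Orc1*, *Mcm7*, *Cdc45* and *E2f8*, and since the estimation was not stated to use strand, reads of both genes may be mixed there. None of *E2f2*, *Tyms*, *Pold2* and *Rrm2* has such an overlap.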

How the data were processed

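RNA from 4 flow-through and 4 enriched libraries was sequenced as stranded poly(A) libraries. The authors mapped reads with TopHat (version not given in the sources used here) to mm10 and estimated FPKM with Cufflinks 2.1.1, per the labels and methods, and the deposited table holds these FPKM values without counts. The annotation release is not given in the sources used here. Whole reads could not be recovered (14.4% to 18% of low values lay within 5% of a whole multiple), so no count model or counting interval was used.

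Genes whose FPKM averaged 1 or more over the 8 libraries were tested on log2(FPKM + 1) with limma 3.58.1 (R 4.3.3, trend), without a block, with Benjamini-Hochberg adjustment over all 12166 genes and a threshold of 0.05. Fold changes are on that scale, which understates changes of low genes. The script was tested on simulated data. Libraries were grouped by their titles. The labels describe isolation per mouse, and libraries of the same number deviated together from their group means (r of 0.660, 0.589, 0.308 and 0.471 for mice 1 to 4), so the numbers were taken to pair them. With 4 mice, p-values measure the spread between these libraries.

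Members and lists were chosen with earlier results of these data known. Every member could be named, and in each other list and direction the 5 called genes with the largest change. Ratios between members were chosen after their values had been seen. Alternatives were a replicate block, a pseudocount of 0.1, no filter, a mean of at least 5 FPKM, scaling by T-cell genes (*Cd3d*, *Cd3e*, *Cd3g*, *Cd247*, *Cd8a*, *Cd8b1*, *Lck* and *Zap70*, of which *Zap70* itself was called higher, limma adjusted p = 0.026), median-ratio scaling and leaving out each library. Leaving out both libraries of mouse 1 was added after seeing the data. Positions were read from GENCODE M21, which holds 98.9% of the table's identifiers, and promoter windows from RefSeq on GRCm38.p6. 1 item is not reported here and was left out of the lists.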

Additional observations from a re-analysis of the deposited data

How the results depend on the processing

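With the replicate block, which uses the pairing by mouse, calls among the 45 genes went from 2 higher and 1 lower to 7 and 3, among all genes from 1720 and 1664 to 2705 and 2763, among other replication factors from 2 and 2 to 9 and 9, among other G1/S genes from 6 and 4 to 11 and 7, and among mitosis genes from 13 higher to 22. Under T-cell scaling the same counts were 1 and 0, 533 and 1089, 0 and 0, 0 and 2, and 0 higher. Without a filter, 1 replication gene was higher, 1 other replication factor was higher and 1 lower, and 2 other G1/S genes were lower. Without both libraries of mouse 1, 4 other replication factors were higher.

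Leaving out 1 library at a time gave 1 to 3 higher and 1 to 1 lower among the 45 genes, 1107 to 1813 higher and 939 to 1780 lower among all genes, 1 to 4 and 1 to 3 among other replication factors, 5 to 8 and 2 to 5 among other G1/S genes, and 9 to 20 higher among mitosis genes. The highest mitosis count, 20, and the highest count of other replication factors, 4, came without the flow-through library of mouse 1. No mitosis gene was called lower by limma under any of these alternatives, where the unadjusted count was 0 as well in the unblocked fit. A pseudocount of 0.1, a mean of at least 5 FPKM and median-ratio scaling left each of the 45 genes on its side of the threshold. The causes of these changes were not tested. No called member changed its direction under any alternative run. The depth behind the FPKM values is not stated, and 4 mice limit the size of the differences that could be detected.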
